A study of Mus musculus with 2 samples.

Results

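The genes described here are the 213 mouse microRNA genes with high registry numbers that were detected in skeletal muscle of newborn mice. Members were chosen in 2 steps. A gene had to carry a symbol made of Mir and a number of 1000 or more, with or without a suffix, and its counts on the annotated strand had to sum to at least 5 over the 2 libraries. Of the 1973 microRNA genes in the deposited tables, 1894 could be given a symbol, and 577 of these had such a number. Mir3074-1, 7 genes of the large imprinted microRNA cluster on chromosome 12 (the Dlk1-Dio3 region), and any gene inside Sfmbt2 were left out. No high-numbered gene lay inside Sfmbt2, so 569 genes remained, and 213 of them (37.4%) reached the count sum. The other 356 stayed below it, and 242 of those had no count in either library. Because the counts themselves chose the members, their levels are given as a description and were not tested.

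A microRNA is a short RNA cut from one arm of a hairpin, and it guides an Argonaute protein to messenger RNAs that pair with its seed, the bases near its 5′ end. Most hairpins are cut out of a longer transcript by the nuclease Drosha with its partner Dgcr8 and then trimmed by Dicer. A mirtron is a short intron that folds into such a hairpin once it has been spliced out, so the splicing machinery takes the place of Drosha. In a tailed mirtron the hairpin sits at 1 end of a longer intron, and the tail is removed separately. Numbers in the registry follow the order of discovery, so that high numbers mark genes found mostly by deep sequencing and often at low abundance.

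The series is a microRNA sequencing experiment, with library inserts under 30 bases, on skeletal muscle of the mouse strain B6NCrl at postnatal day 0. Both libraries belong to 1 group, with no treated or mutant arm, and each was made from muscle of a single pup whose sex was not collected. The labels call the samples biological replicates 1 and 2, each with technical replicate number 1. The 2 samples have different sample records and 1 shared donor record. Whether they came from 1 pup or 2 is not settled by these records, so a difference between them may be technical. P-values below carry counting error only and measure no spread between samples. The tissue is a whole piece of muscle that also holds nerve, vessel, connective and blood cells, and fewer cells of a type cannot be told apart from less RNA per cell.

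Replicate 1 held 16398945 reads and replicate 2 held 21037937. Counts on the annotated strand of microRNA genes came to 7955914 and 10816295, or 48.5% and 51.4% of the reads, and levels below are given in CPM, counts divided by this total and scaled to 1000000. At this depth 3 counts are worth 0.377 CPM in replicate 1 and 0.277 CPM in replicate 2. The muscle microRNA gene Mir206 stood at 113917 ± 9579 CPM and Mir133b at 832 ± 12.6 CPM (mean ± SD, n = 2, as for every such value below). The liver microRNA gene Mir122 was also counted, at 86.4 CPM in replicate 1 and 153 CPM in replicate 2, and its part in the levels below was not tested.

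The sequences that follow are all listed mature microRNAs of the 10 most abundant members other than Mir5099, shown because the counts of these genes make up most of the members' counts. They come from RefSeq (build GRCm38.p6), where 200 of the 213 members were found by symbol and 198 had at least 1 mature sequence. Each is written 5′ to 3′ with its seed, bases 2 to 8, in capitals.
miR-1983: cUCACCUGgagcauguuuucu
miR-7689-5p: cCGAGGCAgccuggcuuag
miR-7689-3p: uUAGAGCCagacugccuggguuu
miR-3102-5p: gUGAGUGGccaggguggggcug
miR-3102-5p.2-5p: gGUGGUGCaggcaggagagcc
miR-3102-3p.2-3p: cUCUACUCccugccccagcca
miR-3102-3p: gAGCACCCcauuggcuacccaca
miR-1306-5p: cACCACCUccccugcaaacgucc
miR-1306-3p: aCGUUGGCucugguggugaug
miR-3099-5p: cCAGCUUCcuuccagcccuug
miR-3099-3p: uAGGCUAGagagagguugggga
miR-1981-5p: gUAAAGGCugggcuuagacguggc
miR-1981-3p: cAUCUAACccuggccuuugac
miR-6944-5p: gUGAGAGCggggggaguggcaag
miR-6944-3p: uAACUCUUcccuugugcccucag
miR-1249-3p: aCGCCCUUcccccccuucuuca
miR-6923-5p: gUGAGGGCaggaggauuggggugu
The tables count reads per gene, so which of these arms was read cannot be told from them.

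The next set shows whole hairpins that coincide with an intron, or with 1 end of one, because 103 members sit at such a place. Capitals mark bases at the ends of the intron, GU at its first 2 bases and AG at its last 2. The first 5 hairpins are the entire intron of the gene named beside them, and the last 3 are the downstream end of a longer intron.
Mir1981, Marc2: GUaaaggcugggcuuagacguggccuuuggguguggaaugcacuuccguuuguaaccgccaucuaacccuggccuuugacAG
Mir6944, Dbn1: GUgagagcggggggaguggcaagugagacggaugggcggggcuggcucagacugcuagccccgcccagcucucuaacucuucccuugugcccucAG
Mir6923, Myh3: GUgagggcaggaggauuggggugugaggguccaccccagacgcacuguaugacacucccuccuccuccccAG
Mir1982, Oaz1: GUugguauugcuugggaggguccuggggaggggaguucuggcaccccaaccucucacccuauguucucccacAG
Mir1224, Vwa5b2: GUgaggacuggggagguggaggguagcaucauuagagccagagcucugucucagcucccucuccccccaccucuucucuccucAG
Mir7007, Cpa3: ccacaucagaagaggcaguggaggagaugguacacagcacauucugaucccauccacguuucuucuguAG
Mir3100, Dmpk: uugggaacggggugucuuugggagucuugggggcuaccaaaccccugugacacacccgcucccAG
Mir6917, Erbb3: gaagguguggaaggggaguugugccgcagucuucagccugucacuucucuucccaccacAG

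The 213 members together made a very small part of the microRNA pool. Their counts were 13254 in replicate 1 and 18304 in replicate 2, which is 0.167% and 0.169% of all annotated-strand microRNA counts, with a mean of 0.168% ± 0.00186. The 317 detected genes numbered below 1000 or named let-7 held 99.3%. A typical member was read a handful of times: the median sum over both libraries was 14 counts and the median level 0.751 CPM, against a median of 120 CPM for the detected lower-numbered genes. The lowest member stood at 0.231 CPM.

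Only a few members were abundant. Mean levels of at least 100 CPM were seen for 4 members, of at least 10 CPM for 13 and of at least 1 CPM for 86, while 166 of the 317 lower-numbered genes reached 100 CPM and 292 reached 1 CPM. In 70 members both libraries held at least 10 counts. A library with no count was found for 12 members, where a count of 0 allows a level of up to 0.377 CPM in replicate 1 or 0.277 CPM in replicate 2 (3 counts of the total, counting error only). At the count limit itself, 21 members had a sum of 5 and 20 a sum of 6, while just below it 17 genes had a sum of 4 and 27 a sum of 3, so the limit cuts through a continuous range of low counts.

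Counts were concentrated in few genes. The most abundant member held 30.6% ± 5.97 of all member counts, the first 5 held 66.1% ± 4.45, the first 8 held 77.5% ± 1.95 and the first 20 held 87.2% ± 1.06. By registry number, the 29 members in the 1000s held 47.97% ± 4.07 of the counts, the 35 in the 3000s held 18.4% ± 1.21 and the 64 in the 7000s held 18.3% ± 2.00. The 56 members in the 6000s held 7.96% ± 0.861, and the 21 in the 5000s and 7 in the 8000s held 4.93% ± 0.282 and 2.33% ± 0.262. The 2000s had 1 member, Mir2137, with 19 and 24 counts. Among all 569 high-numbered genes, the share that was detected ran from 21.9% in the 8000s and 29.3% in the 6000s to 50.7% in the 3000s.

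**Figure D1:**
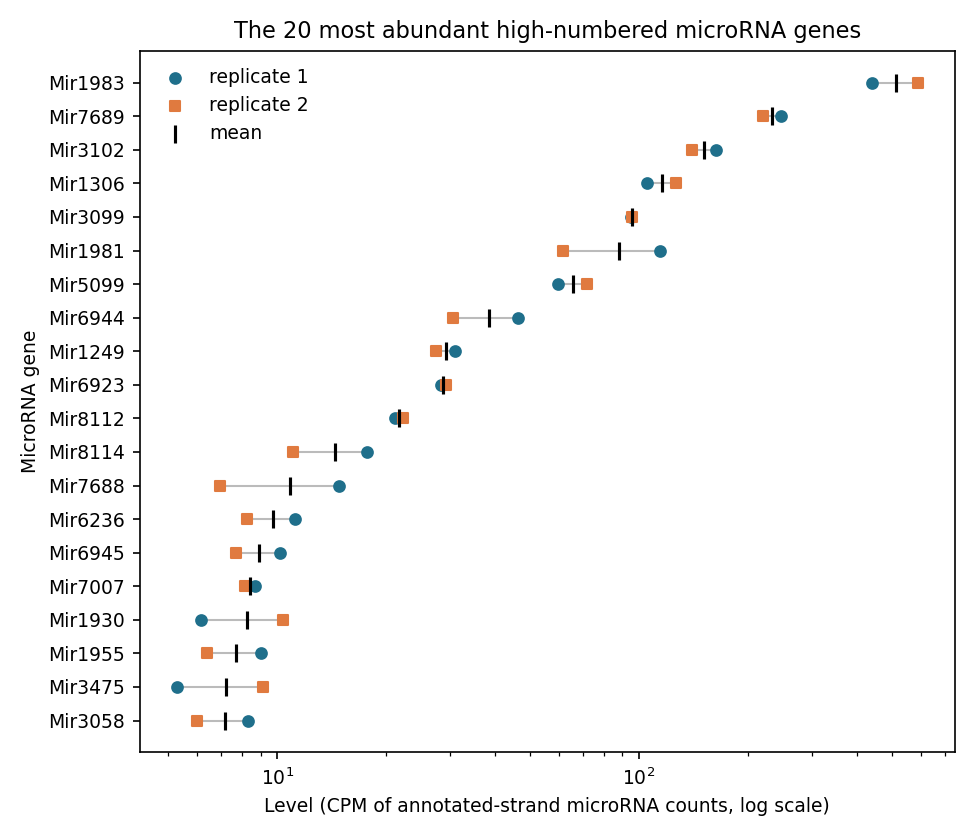
Level of the 20 most abundant high-numbered genes in each library, in CPM on a log scale; circles are replicate 1, squares replicate 2 and ticks the mean. Mir1983 leads at 514 CPM, 4 genes exceed 100 CPM, and the series falls to 7.15 CPM for Mir3058.

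Mir1983 was the most abundant member, with 3494 and 6370 counts, or 439 and 589 CPM (514 ± 106 CPM), and ranked 115 among the 550 genes with a sum of at least 5. Its hairpin lies at chr13:21896918-21897049 on the minus strand (GRCm38, as for all positions here), between protein-coding and long noncoding genes. It was the only member that overlapped another annotated small RNA gene: RefSeq places the 94-base isoleucine transfer RNA gene n-TItat14 at 21896938 to 21897031 of the same chromosome. The mature sequence, at 21896930 to 21896950, shares 13 bases with that gene and runs 8 bases past its end. Whether reads of the transfer RNA gene enter the counts of Mir1983 was not tested. The level of Mir1983 was higher in replicate 2 in this pair of libraries, by a log2 difference of replicate 1 over replicate 2 of -0.56 (95% interval -0.62 to -0.50). This is below the 2-fold limit set for a call.

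Mir7689 followed with 1959 and 2386 counts (233 ± 18.1 CPM). It lies at chr5:36301570-36301628 on the plus strand, opposite to Sorcs2, a receptor gene of the sortilin family, with no host on its own strand. Mir3102 had 1295 and 1511 counts (151 ± 16.3 CPM) and fills a 104-base intron of Arhgef17 at chr7:100882306-100882409 on the minus strand. Mir7689 and Mir3102 stood apart by more than the spread of either gene between the libraries.

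Mir1306 had 835 and 1369 counts (116 ± 15.3 CPM). It lies at chr16:18284239-18284317 on the minus strand, inside the coding sequence of an exon of Dgcr8, whose protein is the hairpin-binding partner of Drosha. Among the 15 members that sat wholly inside an exon of a protein-coding gene, its 2204 counts were far above those of all the others, of which the next, Mir3061, had 79. The host transcript was not measured by these libraries.

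Mir3099 had 757 and 1033 counts and nearly equal levels, 95.3 ± 0.251 CPM. It lies in a 169340-base intron of Usp29, an imprinted gene beside Peg3. Mir1981 had 910 and 668 counts, or 114 CPM in replicate 1 and 61.8 CPM in replicate 2 (88.1 ± 37.2 CPM), and fills an 82-base intron of Marc2, a gene for a mitochondrial reductase. Mir1306 was above Mir3099 in both libraries, at 105 against 95.1 CPM in replicate 1 and 127 against 95.5 CPM in replicate 2. The gap in replicate 1 was smaller than the SD of Mir1306, 15.3 CPM. Mir1981 does not separate from these neighbours in the order, since it was above both in replicate 1 and below both in replicate 2.

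Below these came Mir5099 with 476 and 778 counts (65.9 ± 8.56 CPM), which lies between genes at chr12:36816205-36816278, and Mir6944 with 368 and 331 counts (38.4 ± 11.1 CPM), which fills a 96-base intron of Dbn1, the gene of the actin-binding protein drebrin. Mir1249 had 246 and 297 counts (29.2 ± 2.45 CPM) in an intron of 5031439G07Rik. Mir6923 had 225 and 317 counts (28.8 ± 0.726 CPM) and is a 72-base intron of Myh3, the embryonic myosin heavy chain gene of developing muscle, at chr11:67099804-67099875. Mir1249 and Mir6923 differ by less than the spread of Mir1249 alone.

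Mir8112 (168 and 241 counts, 21.7 ± 0.824 CPM) and Mir8114 (141 and 120 counts, 14.4 ± 4.69 CPM) both cross the edge of a 5′ untranslated exon, of Krcc1 and of Glul, the glutamine synthetase gene. The Mir8112 hairpin, at chr6:71271671-71271801, also lies opposite to Smyd1, a gene of striated muscle. It has at least 20 bases in common with 104 other genes of the annotation, so its counts are uncertain as counts of this locus. Mir7688 (118 and 75 counts) and Mir6236 (89 and 89 counts) lie between genes, and Mir6236 shares such stretches with 17 other genes.

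The remaining genes of the first 20 were mostly intronic. Mir6945 (81 and 83 counts) is the downstream end of a 239-base intron of Pdlim7, a PDZ and LIM domain gene of the actin cytoskeleton. It is intronic in 3 of the 4 transcripts examined and overlaps a 3′ untranslated region otherwise. Mir7007 (69 and 88 counts) is the downstream end of a 942-base intron of Cpa3, the carboxypeptidase of mast cells. Mir1930 (49 and 112 counts) lies in Ube2g2, a ubiquitin-conjugating enzyme gene, Mir1955 (72 and 69 counts) in Phf21a, which encodes a histone reader, and Mir3058 (66 and 65 counts) in Nudt4. Mir3475 (42 and 99 counts) lies between genes on the X chromosome.

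Most members were hosted by a gene transcribed in the same direction. Of the 213, 149 (69.95%) lay in an intron of a same-strand gene in every transcript examined, and for 145 (68.1%) that gene was protein-coding. A further 7 were in an intron or an exon depending on the transcript. In a protein-coding host only the protein-coding transcripts that span the hairpin were examined, where there were any. An exon of another transcript at the same place would not be seen. A further 38 (17.8%) lay in an exon or across its edge, 6 (2.82%) lay opposite to a gene, and 13 (6.10%) lay between genes. The 194 members with a same-strand host had 192 different hosts. The pairs with a common host were Mir1264 and Mir1298 in an 85268-base intron of Htr2c, a serotonin receptor gene, and Mir5134 and Mir6965 in Ccnf, the cyclin F gene.

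The high-numbered genes below the count sum and the detected lower-numbered genes were placed differently. Introns held 49.7% of the former and 45.1% of the latter, and 19.9% and 25.9% lay between genes, against 69.95% and 6.10% of the members. Opposite-strand positions were taken by 12.9% of the high-numbered genes below the sum and by 2.82% of the members. These shares describe the annotation of 3 sets of genes and were not tested.

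**Figure D2:**
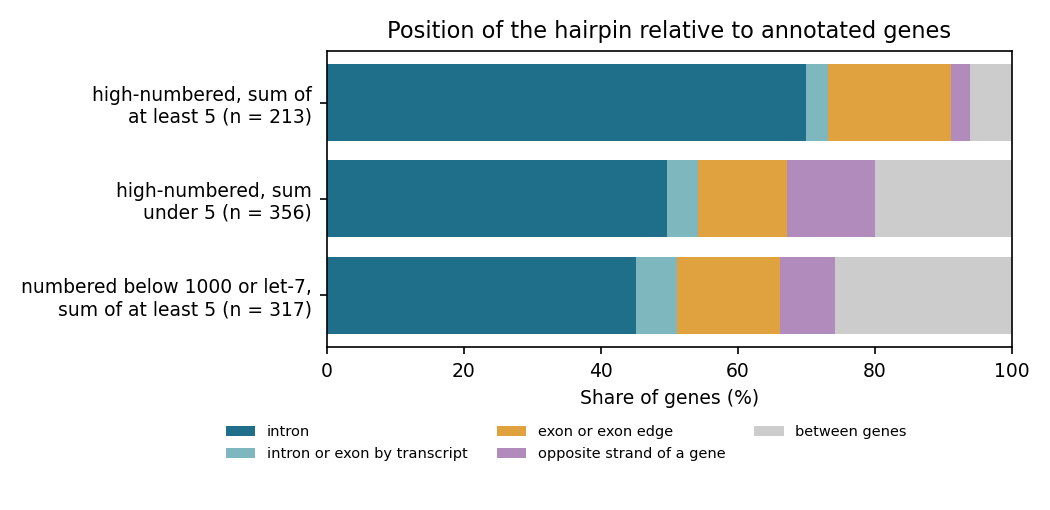
Share of genes (%) by position of the hairpin for the 213 members, the 356 high-numbered genes below the count sum and the 317 detected lower-numbered genes. The intron segment covers 69.95% of the members, 49.7% of the high-numbered genes below the sum and 45.1% of the lower-numbered genes.

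Numbers of genes and numbers of counts gave unlike pictures of position. The 145 members in protein-coding introns, 68.1% of all, held 36.5% ± 4.81 of the members' counts. The 13 between genes held 36.7% ± 6.05, most of it Mir1983, and the 6 opposite to a gene held 14.0% ± 1.25, most of it Mir7689. The 15 members inside coding-gene exons held 7.79% ± 0.653, most of it Mir1306.

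The intronic members were found mainly at splice sites. For each hairpin the smallest intron of its own strand was taken, and a hairpin end was called at a splice site when it lay within 3 bases of it. An intron held 161 members by this measure, and in 102 of them (63.4%) the downstream end of the hairpin was at the 3′ splice site, with a median distance of 0 bases. The same held for 90 of 199 high-numbered genes below the count sum (45.2%, median 179 bases) and for 2 of 164 detected lower-numbered genes (1.22%, median 3634 bases). The upstream end of the hairpin was at the 5′ splice site in only 13 of the 161 members (8.07%).

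Both ends of the hairpin were at splice sites in 12 members, so that hairpin and intron coincide as in a mirtron. Their introns were 72 to 104 bases long, and all 12 hairpins start with GT and end with AG in the genome sequence. In 90 members only the downstream end was at a splice site, as in a tailed mirtron. In 84 of these the match was exact, and the introns ranged from 77 to 36269 bases with a median of 494, so that most were far longer than the hairpin. Only Mir6977, in Ptprs, a receptor tyrosine phosphatase gene, was at the upstream end alone, with 4 and 2 counts. In all, 103 of the 213 members (48.4%) touched a splice site.

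**Figure D3:**
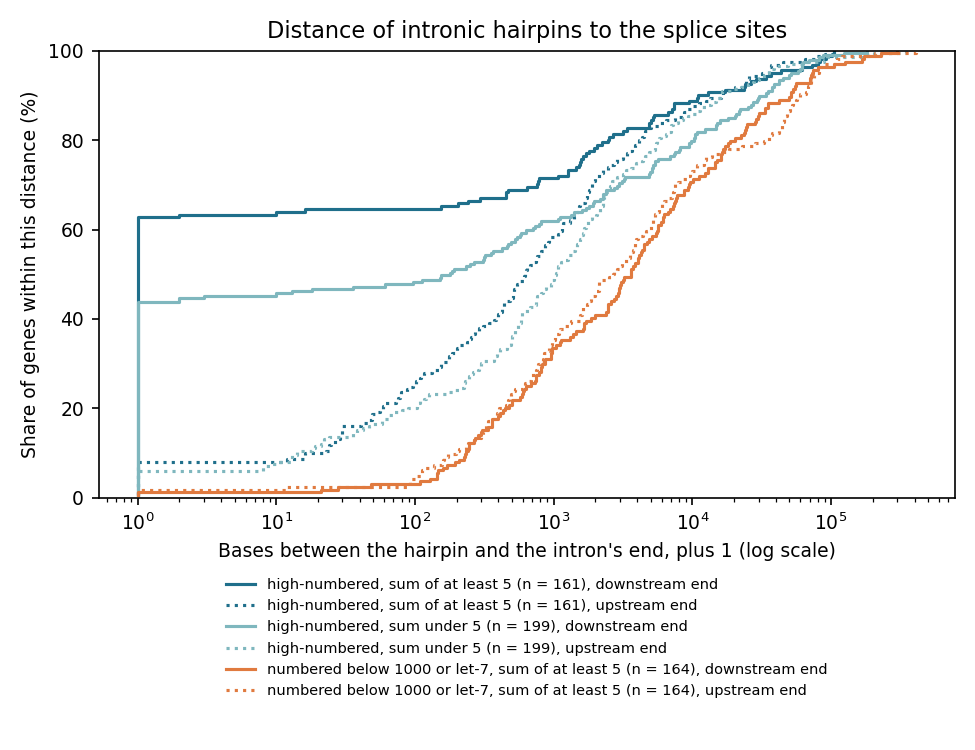
Cumulative share (%) of intronic hairpins by distance of the downstream end (solid) and upstream end (dotted) to the end of the intron, on a log scale of bases plus 1, for members and both comparison sets. The solid line of the members starts at about the 63.4% that lie within 3 bases, that of the lower-numbered genes near 1.22%.

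The annotated mature sequences mostly reached the same ends. They are part of the hairpins that were picked for ending there, so this is no separate support. Mature positions were available for 97 of the 103 members at a splice site. In 89 of them a mature sequence ended within 3 bases of the 3′ splice site, and in 77 it ended exactly there. Of the 12 members at both ends, 11 had a mature sequence starting on the first base of the intron. In the sequences shown above, miR-1981-5p, miR-6944-5p and miR-6923-5p are such cases, and their seeds begin at base 2 of the intron.

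The median count was higher for members that fill an intron than for those at its downstream end. The 12 members at both ends had a median sum of 47.5 counts, ranging from 8 to 2806, and held 19.2% ± 3.98 of the members' counts. The 90 at the downstream end alone had a median sum of 9, at most 164, and held 5.98% ± 0.215. The 58 inside an intron but at neither end had a median of 17 and held 12.9% ± 0.819, and the 52 in no intron had a median of 16.5 and held 61.95% ± 5.03. Since counts chose the members, these medians were not tested. By number of genes, the count sum was reached by 12 of 19 high-numbered genes at both ends (63.2%), 90 of 173 at the downstream end (52.0%), 58 of 162 inside an intron (35.8%) and 52 of 209 in no intron (24.9%).

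**Figure D4:**
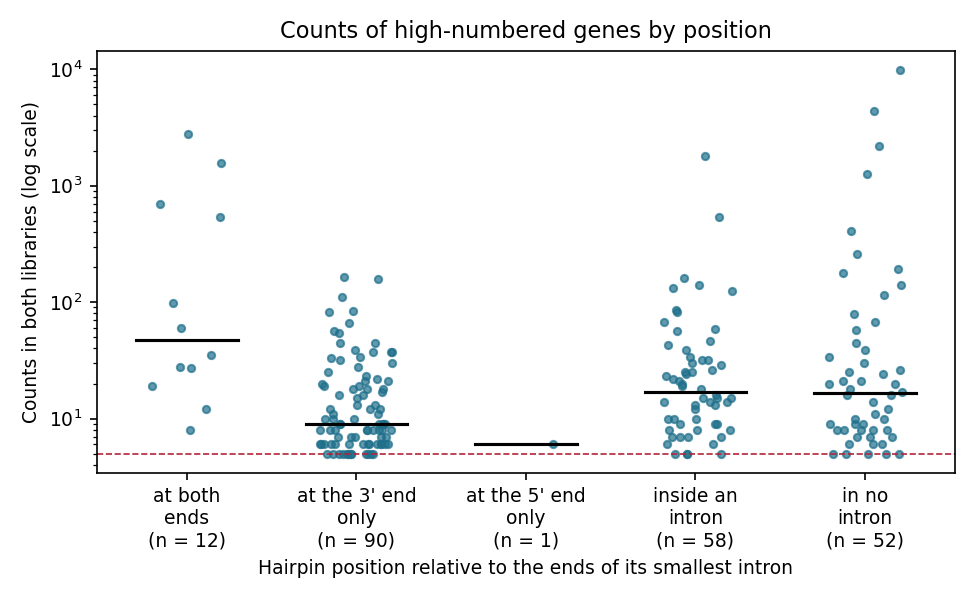
Counts in both libraries together (log scale) for each of the 213 members, grouped by hairpin position relative to its intron; bars are medians and the dashed line is the count limit of 5. The 12 genes at both ends have a median of 47.5, the 90 at the downstream end one of 9.

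Besides Mir3102, Mir1981, Mir6944 and Mir6923, the members that fill their intron were less abundant. Mir1982, in a 74-base intron of the antizyme gene Oaz1, had 45 and 53 counts, and Mir7018, in an 85-base intron of Hspg2, the gene of the basement membrane proteoglycan perlecan, had 32 and 28. Mir7068 in Cherp had 11 and 24 counts, Mir6958 in Dennd6b had 9 and 19, Mir7070 in Fbxw9 had 7 and 20, and Mir7091 in Dnase1l1 had 6 and 13. Mir1224 in Vwa5b2 had 6 and 6, and Mir3547 in Baiap3 had 2 and 6. None of the 12 was empty in a library.

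Several hosts are genes of muscle. This grouping, and the next, were made after the values were seen and describe these genes only. Besides Mir6923 in Myh3, Mir3100 is the downstream end of a 308-base intron of Dmpk, the myotonic dystrophy protein kinase gene, and had 35 and 76 counts. Mir1963, 1 base from the 3′ splice site of an intron of Ryr1, the calcium release channel of the sarcoplasmic reticulum, had 12 and 10 counts. Mir6990, in Esrra, a nuclear receptor gene of energy metabolism that is not particular to muscle, had 14 and 16 counts. Mir6923 was the only one of these 4 members above 10 CPM. Hosts of other cell types were also present: Mir6917 in Erbb3, a receptor of Schwann cells, had 14 and 18 counts, Mir7025 in Pdgfra, a receptor of connective tissue cells, had 4 and 10, and Mir6540 in Gap43, a gene of growing axons, had 38 and 18.

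Members also lay in genes of microRNA production and action. Besides Mir1306 in Dgcr8, Mir3064 ends at the 3′ splice site of an intron of Ddx5, an RNA helicase found with Drosha, and had 31 and 52 counts. Mir5113, in the 3′ untranslated region of Tnrc6b, an Argonaute partner, had 45 and 22 counts, and Mir3572, at an exon edge of Cnot3, a subunit of the CCR4-NOT deadenylase, had 27 and 12. Mir7036, in Srrt, a cap-binding cofactor of microRNA processing, had 0 and 7.

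Among the 15 members inside exons of protein-coding genes, 3 were in coding sequence, 5 in 3′ untranslated regions, 5 in 5′ untranslated regions, and 2 carried both an untranslated and a coding annotation. After Mir1306, the highest were Mir3061 in Ppp2ca, a phosphatase catalytic subunit gene, with 31 and 48 counts, and Mir5113. Mir7658 in Plekhn1 (10 and 15), Mir7219 in Fam210a (11 and 9), Mir7654 in Arglu1 (7 and 9), Mir5133 in Glce (8 and 4), Mir5130 in Kctd12 (6 and 4), Mir5131 in Ddhd1 (4 and 4) and Mir3098 in Mrpl51 (0 and 8) had few counts. Mir1191, Mir5114, Mir5122, Mir7648 and Mir8098 had sums of 5 to 8.

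A list of 9 microRNAs that textbooks describe as made without Drosha cleavage was examined next, and 8 of its genes could be found in the tables. The lower-numbered genes on it were Mir484 (2100 ± 33.5 CPM) and Mir320 (591 ± 142 CPM), both cut from short capped hairpins, and Mir877 (47.2 ± 5.95 CPM) and Mir702 (20.5 ± 10.2 CPM), both described as mirtrons. In the annotation used here Mir877 fills an 85-base intron of Abcf1. Mir702 instead crosses an exon edge of Plod3 and was held by no intron. The 4 members were Mir1983 (514 ± 106 CPM), Mir1981 (88.1 ± 37.2 CPM), Mir1982 (5.28 ± 0.535 CPM) and Mir1224 (0.654 ± 0.141 CPM). The levels on the list thus covered more than 3 orders of magnitude, with Mir1983 near its top and Mir1224 at its end.

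At the median, hairpins of members were shorter and richer in G and C than those of lower-numbered genes. The median length was 71 bases (51 to 137) with 56.1% G and C, against 84 bases and 48.0% for the detected lower-numbered genes and 81 bases and 53.0% for the high-numbered genes below the count sum. The folding energy computed with RNAfold was -0.426 kcal/mol per base at the median of the members, -0.386 for the genes below the sum and -0.433 for the lower-numbered genes. The median was -0.388 for members at a downstream splice site alone and -0.464 for those inside an intron at neither end. Median lengths of these 2 groups were 65 and 83 bases. The 52 members in no intron had a median of 82 bases and the 12 at both ends one of 83.5. The shorter length thus lay mainly with members at a downstream splice site alone. A final AG was found in 102 members (47.9%), 104 genes below the sum (29.2%) and 25 lower-numbered genes (7.89%).

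Few members resemble another microRNA gene. A stretch of at least 20 hairpin bases was shared with another microRNA gene by 6 of 213 members, by 37 of 356 genes below the count sum and by 94 of 317 detected lower-numbered genes. At least 10 annotated genes of any kind held such a stretch of 7 members: Mir8112, Mir6236, Mir8111, Mir1934, Mir3473d, Mir1191 and Mir7669. Reads that map to several places were left unassigned in the tables, so the counts of these 7 are uncertain. The search covered GENCODE genes only, and the transfer RNA gene at Mir1983 is listed by RefSeq. Stretches shared with such genes were not looked for, so the counts of Mir1983 are uncertain too.

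Seeds were also mostly private to a member. The 347 mature sequences of members had 332 different seeds, 28 members shared a seed with another member, and 17 shared 1 with a mature sequence of a detected lower-numbered gene. A match here is to any 1 listed mature sequence of the gene, and which arm was read cannot be told. The abundant Mir1983 has the seed UCACCUG in common with a mature sequence of Mir412, and miR-3102-5p has UGAGUGG in common with 1 of Mir702. Mir3475 shares AAUCAUG with a mature sequence of Mir96, and Mir6932 and Mir7039 share CUGUUCU with mature sequences of Mir26a-2 and Mir26b. Mir7689 shares CGAGGCA with Mir5620, as the line below shows, with the seed in capitals.
miR-5620-5p: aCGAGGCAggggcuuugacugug

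Almost all counts at members were on the annotated strand. The opposite strand held 12 counts in each library, or 0.0760% of the members' counts on both strands (exact 95% binomial interval 0.0487 to 0.113%), spread over 10 members, and no member had more opposite-strand than annotated-strand counts. The opposite strand held 1.12% at the lower-numbered genes and 5.75% at the high-numbered genes below the count sum. All 3 sets were defined by annotated-strand counts, so these shares are partly fixed by that choice and are not compared. Mir7654 held 10 of the members' 24 opposite-strand counts, with 5 in each library beside 7 and 9 on its own strand.

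The split of each member's counts between the libraries, which the choice of members did not use, was tested with an exact two-sided binomial test at TMM-scaled library sizes, with Benjamini-Hochberg adjustment over all 550 genes with a sum of at least 5. The test compares 2 libraries and not conditions, and its error is counting error only. An adjusted p below 0.05 with at least a 2-fold difference was found for 15 of 213 members (7.04%), near the 8.18% of all genes tested. In 9 of the 15 a library had no count, and such a gene reached the sum of 5 only through the library where it was high, so neither the rate nor the division below is read as a result about the members. With at least 10 counts in both libraries, 27 of 365 genes tested were called, 5 of them members. Of the 15, 11 were higher in replicate 1 and 4 in replicate 2, where 6.91% and 1.27% of all genes tested were called. This division depends on the scaling. It was 12 and 0 with library totals, beside 54 and 1 of all 550 genes tested. With DESeq2 size factors it was 7 and 6, beside 26 and 11 of all genes tested. The reason is that TMM shifts every log2 ratio by -0.14 and DESeq2 size factors by -0.25 relative to library totals. At any fold, 26 members (12.2%) had an adjusted p below 0.05, beside 44.4% of all genes tested. This share depends on depth. At sums of 5 to 19 it was 10 of 128 members and 4 of 27 detected lower-numbered genes. With sums of at least 100 it was 10 of 23 members and 200 of 255 lower-numbered genes. Most members have low sums, so the 12.2% is not read as closer agreement between the libraries.

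All 15 called members had few counts, with sums of at most 67, and none of the 23 members with a sum of at least 100 was called. Mir5113 had 45 and 22 counts, a log2 ratio of replicate 1 over replicate 2 of 1.34 (95% interval 0.57 to 2.15, adjusted p = 0.000861 by the exact binomial test). Mir6540 had 38 and 18 counts (log2 ratio 1.39) and Mir3572 had 27 and 12 (log2 ratio 1.48). Mir5619, in an intron of Nudt9, had 11 and 2 counts and the widest interval of the 6 called members with counts in both libraries (log2 ratio 2.77, 95% interval 0.57 to 5.98).

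Mir7019 is at the downstream end of an intron of the mitochondrial kinase gene Pink1. It is intronic in 2 of the 3 transcripts examined and overlaps a 5′ untranslated region otherwise. Mir7019 had 25 and 14 counts (log2 ratio 1.14), and Mir7666, in an intron of Fgf20, had 20 and 10 (log2 ratio 1.31). Adjusted p-values of both lay just below the threshold in the exact binomial test, at 0.0378 and 0.0405. Both calls were lost with DESeq2 size factors (adjusted p = 0.0794 and 0.0923 in the same exact test) and with no filter (0.0684 and 0.0763), and that of Mir7019 also with at least 10 counts in both libraries (0.0579). The other 9 called members had no count in 1 library, and those beyond the 10 highest were named after their values were seen. Mir7024, Mir7049 and Mir7089 had 6 and 0 counts, Mir3473d and Mir7662 had 5 and 0, Mir3098 and Mir5114 had 0 and 8, and Mir6538 and Mir7036 had 0 and 7.

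For the members as a whole the balance of directions depended on the scaling. The log2 ratio of replicate 1 over replicate 2 was above 0 in 108 members and below 0 in 105 with TMM, in 121 and 92 with library totals, and in 94 and 119 with DESeq2 size factors. Its median size without sign was 0.63 with TMM. That size was smaller at greater depth, from 0.72 for the 128 members with sums of 5 to 19 to 0.42 for the 62 with sums of 20 to 99 and 0.33 for the 23 with sums of at least 100. For all 550 genes tested the median size was 0.40. The interval of the ratio lay clear of 0 in 28 members, 11 of them among the 23 with the most counts.

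**Figure D5:**
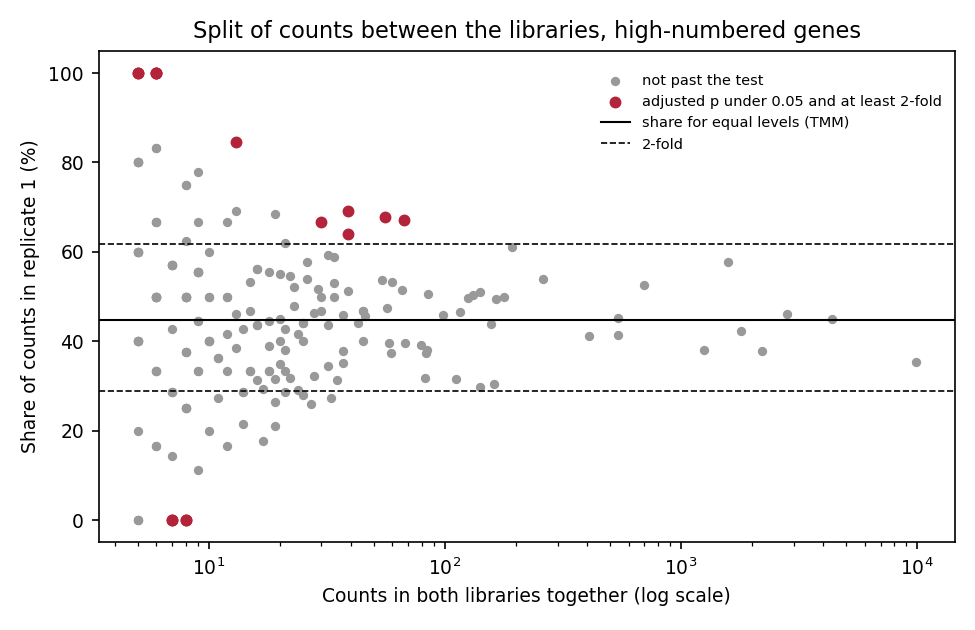
Share of each member's counts that came from replicate 1 (%) against its counts in both libraries (log scale); the solid line is the share for equal levels, the dashed lines mark a 2-fold difference and red points are the 15 called members. Called members lie at sums of at most 67, and the spread narrows as counts rise.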

How the data were processed

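Small-RNA libraries of 2 samples of 1 group were analysed. Whole-number counts per gene were deposited by the authors for mm10 and GENCODE M4, per the readme deposited with the tables. No aligner or counting tool was given in the sources used here. The third column was taken as the annotated strand because it holds most microRNA counts (7955914 and 10816295, against 955977 and 1456833 in the fourth column); this is an inference from the values. The 4 lines that name no gene were left out of library sizes: unmapped reads were 16.0% and 13.4% of reads, multimapping reads 28.01% and 26.9%, and reads outside features 1.60% and 1.43%.

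Symbols, positions and hosts came from GENCODE M21 (GRCm38), which matched 1894 of 1973 identifiers, and sequences from RefSeq (GRCm38.p6). CPM are over annotated-strand microRNA counts, without pseudocount. The members and gene lists were chosen with earlier results of these data known. Library sizes were scaled with TMM in edgeR 4.0.16, and the binomial test was run in scipy 1.17.1. The test was tried on simulated counts that held counting error only, at known library sizes and without TMM. That trial gives no error rate for these data. edgeR's quasi-likelihood test could not be used, since 1 group of 2 libraries has no contrast. DESeq2 1.42.0 gave alternative size factors, and ViennaRNA 2.7.2 the folding energies.

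Named genes are the 20 members with the highest mean CPM, members of the list of microRNAs made without Drosha, members inside coding-gene exons or overlapping another small RNA gene, and members called between libraries (the 10 highest where there were more). Others named were chosen after their values were seen. Alternatives were the counting column, the count minimum, leaving out a library or genes, the scaling, the fold limit and the definition of hosts; 3 on splice sites were chosen after seeing the data. The depth of 7955914 and 10816295 counts makes 1 count worth 0.126 and 0.0925 CPM, and intervals and floors cover counting error only.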

Additional observations from a re-analysis of the deposited data

Results flagged for a closer look

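The opposite strand at Mir7654, in coding sequence of an exon of Arglu1, held 10 counts over both libraries, 5 in each, beside 16 on the annotated strand. Opposite-strand counts were not used to choose or measure the members, and there is no control library to set them against. They stand above the 3 counts that an observed count of 0 would allow. The cause was not tested.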

How the results depend on the processing

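The members' share of microRNA counts, 0.168%, was 0.149% with unstranded counts, 0.165% and 0.162% with minimum sums of 10 and 20, 0.165% without members that share 20 bases with another microRNA gene, 0.117% without Mir1983, 0.710% with the excluded genes kept in and 0.0839% over all reads; these shifts follow from which genes or reads enter the ratio. In single libraries it ranged from 0.167% to 0.169%. The number of members was 327, 130 and 85 with minimum sums of 1, 10 and 20, and from 132 to 151 with 1 library left out. Members called between libraries fell from 15 to 5 with at least 10 counts in both libraries and to 9 with no filter, where the number of genes tested changes; 13 were called with DESeq2 size factors, 12 with library totals, 21 at a 1.5-fold limit and 15 with unstranded counts. Of the 6 called members with counts in both libraries, Mir7019 lost its call with DESeq2 size factors (adjusted p = 0.0794, exact binomial test), with at least 10 counts in both (0.0579) and with no filter (0.0684), and Mir7666 with DESeq2 size factors (0.0923) and no filter (0.0763). With a minimum sum of 20, the share of members at a splice site fell from 48.4% to 40.0% and the opposite-strand share from 0.0760% to 0.0230%; the cause was not tested. The intronic share stayed between 67.1% and 71.4%, the splice share was 45.5% for exact matches and 53.1% within 10 bases, and the folding energy per base stayed between -0.4333 and -0.4243. The alternatives on splice sites were chosen after seeing the data. No paired analysis was possible because the series has a single group.

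Depth is the main limit: 128 of the 213 members have sums under 20 counts, so their levels and splits are known only roughly, and a gene below the count sum is not shown to be absent. Multimapping reads are not counted, and gene counts cannot tell the arm or the exact ends of the reads.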

Other observations

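The 7 chromosome 12 genes and Mir3074-1 that were left out of the high-numbered members include genes far above most members. Mir3071 had 23226 and 26333 counts and Mir1193 had 17002 and 32916, each more than the 213 members together. Mir3072 had 618 and 901 counts, Mir1188 had 247 and 403, and Mir3074-1 had 155 and 142. Mir3070a (107 and 155), Mir1197 (77 and 138) and Mir3070b (11 and 12) were lower.

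Among members outside the first 20, Mir1198 in Gripap1 had 62 and 63 counts (6.81 ± 1.39 CPM), and Mir1247, at an exon edge of the noncoding gene Dio3os, had 54 and 62 (6.26 ± 0.746 CPM). Dio3os closes the same imprinted region, beyond the interval that was left out. In the shared Htr2c intron, Mir1298 had 26 and 56 counts and Mir1264 had 9 and 11. Mir8111 and Mir1934, with 15 and 15 and with 9 and 12 counts, share stretches of 20 bases with 1209 and 451 other genes, the most of all members with such stretches.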
